A study of Mus musculus with 11 samples.

Results

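The inflammatory cytokine gene Tnf and 9 genes of the NF-kappaB pathway were followed through single-cell RNA sequencing (scRNA-seq) of the mouse brain. The brains had undergone sham surgery or middle cerebral artery occlusion and reperfusion (MCAO/R), a model of stroke, with and without the gene Lrg1. The 10 genes were chosen by name, as the rows of the count tables called Tnf, Tnfrsf1a, Tnfrsf1b, Nfkbia, Nfkbiz, Tnfaip3, Nfkb1, Rela, Relb and Birc3, out of 32285 genes counted.

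Tumor necrosis factor, the product of Tnf, is released by microglia, the resident macrophages of the brain, within hours of an ischemic injury. It binds receptors encoded by Tnfrsf1a and Tnfrsf1b. Receptor binding frees NF-kappaB dimers built from subunits such as those encoded by Rela, Relb and Nfkb1, which then switch on inflammatory genes, Tnf included. Among the genes switched on are brakes on the same signal. Nfkbia encodes IkappaB-alpha, which holds the dimers in the cytoplasm, and Tnfaip3 encodes A20, a ubiquitin-editing enzyme that silences the complex at the receptor. Nfkbiz encodes a nuclear IkappaB protein that helps to turn on a later set of targets. Birc3 encodes cIAP2, a ubiquitin ligase of the receptor complex that also restrains cell death.

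The 11 libraries, 1 mouse each, formed 4 groups: sham + WT (replicates 1, 2 and 3), sham + Lrg1-/- (1, 2 and 5), MCAO/R + WT (1 and 2) and MCAO/R + Lrg1-/- (1, 2 and 5). Wild-type mice were C57BL/6 males of 8 to 10 weeks. The Lrg1-/- mice carried a conventional deletion from exon 1 to the stop codon in exon 2, present in every cell and throughout life. The methods give both C57BL/6J and C57BL/6N for their strain and name a backcross of 4 generations. The only age given for them, 3 months, stands beside that backcross. They came from Cyagen Biosciences and the wild-type mice from Yangzhou University, so the source went with the genotype. The surgical methods name occlusion of 0.5 and 1 h, withdrawal of the filament after 1 h, and reperfusion of 1, 6, 12 and 24 h. The sequencing methods name no reperfusion time, and the discussion speaks of effects at 1 h without saying from when it was counted. Tissue of the right side of the brain was digested at 37 °C for 30 to 60 min, a step that can itself raise stress and early response transcripts.

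Transcripts were counted as unique molecular identifiers (UMIs), with 37159497 to 171813031 UMIs per library. After filtering, 3054 to 32130 cells per library remained (125491 in all), at a median of 3063 to 11181 UMIs per cell. Cells fell into 16 types named from marker genes, so that each name stands for cells like that type. Microglia were the most numerous (30904 cells, 24.6%). Another 17217 cells (13.7%) stayed unnamed, from 1.45% of the cells in MCAO/R + WT replicate 2 to 43.0% in MCAO/R + Lrg1-/- replicate 1. Any 2 libraries shared 5 to 131 cell barcodes among the cells kept, at most 1.09% of the smaller library.

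For each gene, the UMIs of all cells of a type were summed per library. A level is given below as CPM, the gene's UMIs per 1000000 UMIs of that library's cells of that type, in the order of the replicate numbers above. Lower CPM can mean fewer positive cells or less RNA per cell, which these sums cannot tell apart. Differences were tested on the summed counts with edgeR's quasi-likelihood test. A gene was called changed at an adjusted p under 0.05 and a natural-log fold change above 0.25 (0.361 on the log2 scale), and values in brackets are log2 fold changes unless named otherwise. Each fit was repeated with 1 of the 11 libraries left out in turn. A call is said to be lost without a library where it no longer passed, and the brackets then hold the values without it. Where this left a group with 1 library, that library was assumed to vary like the others. Calls that missed the threshold under another choice of cells or fit are also named with the value there. A call left untested by such a choice is not named. Only calls of the 10 members were followed through these repeats and choices, and calls within single microglial clusters were not. These choices were a 10% in place of a 25% limit on mitochondrial UMIs, a fit with only the groups compared, no filter on low counts, thinning each cell to 1000 UMIs, keeping predicted doublets, adding each unnamed cluster to the type it scored best for, and adding the unnamed clusters closest to microglia (8 and 29) to microglia, the last of them added after the data were seen.

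Lrg1 itself had 0 UMIs in 5 of the 6 Lrg1-/- libraries and 1 UMI in MCAO/R + Lrg1-/- replicate 5, against 137 and 121 CPM over all cells in MCAO/R + WT, which matches the labels. The genotypes also differed in transcripts that most brain cells should lack. In microglia the 4 haemoglobin genes summed to 17.5 to 23.2 CPM in sham + WT and 15.05 to 19.1 in MCAO/R + WT, but to 17731 to 33899.7 in sham + Lrg1-/- and 8983 to 16224 in MCAO/R + Lrg1-/-.

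Between the MCAO/R groups, 16 of 120 tests of the 10 genes over 12 cell types were called (6 higher and 10 lower without Lrg1), or 13.3%, where 16.1% of the tests of all genes were called. This count was 27 of 120 with no filter on low counts and 7 of 120 with only the groups compared in the fit. It was lower still without MCAO/R + WT replicate 2, a repeat that left 1 library in that group. For the counts under other choices, here and below, the share of all genes called was not counted. In microglia 4 of 10 were called, all lower, where 21.2% of all genes were. The other calls lay in monocytes and monocyte-derived macrophages (3 of 10, beside 5.49%), neural progenitors and neuroblasts (3 of 10, beside 9.23%), choroid plexus epithelial cells (2 of 10, beside 24.8%), oligodendrocytes (2 of 10, beside 32.3%), endothelial cells (1 of 10, beside 23.7%) and vascular smooth muscle cells (1 of 10, beside 13.7%). Between the sham groups 29 of 130 tests were called (10 higher and 19 lower without Lrg1), or 22.3%, beside 13.6% of the tests of all genes. This count fell to 14 of 130 without sham + WT replicate 2 and to 10 of 106 with cells thinned to 1000 UMIs. Microglia held 5 of 10, all lower, beside 22.6% of all genes. The remainder lay in T cells (5 of 10, beside 19.1%), pericytes (5 of 10, beside 25%), B cells (3 of 10, beside 10.5%), vascular smooth muscle cells (3 of 10, beside 19.1%), choroid plexus epithelial cells (2 of 10, beside 20.3%), monocytes and monocyte-derived macrophages (2 of 10, beside 2.55%), astrocytes (1 of 10, beside 5.14%), endothelial cells (1 of 10, beside 20.4%), neural progenitors and neuroblasts (1 of 10, beside 3.89%) and oligodendrocytes (1 of 10, beside 9.95%).

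With surgery in WT mice, 10 of 110 tests were called (8 higher and 2 lower after MCAO/R), or 9.09%, beside 7.53% of the tests of all genes. They lay in microglia (4 of 10, beside 21.6%), endothelial cells (3 of 10, beside 6.85%), oligodendrocytes (2 of 10, beside 19.5%) and pericytes (1 of 10, beside 5.72%). The count in WT mice was 21 of 109 with only the groups compared in the fit and 5 of 110 without sham + WT replicate 2. It was lower still without MCAO/R + WT replicate 1, a repeat that left 1 library in that group. In Lrg1-/- mice, surgery gave 16 calls in the 137 tests that passed the filter on low counts out of 140 (11 higher and 5 lower), or 11.7%, beside 8.58%. This count was 7 of 138 without sham + Lrg1-/- replicate 2 and 36 of 140 with no filter on low counts. Microglia held 7 of 10, beside 36.2% of all genes, and the others were oligodendrocytes (2 of 10, beside 14.9%), pericytes (2 of 10, beside 7.62%), border-associated macrophages (1 of 10, beside 10.9%), choroid plexus epithelial cells (1 of 10, beside 1.43%), endothelial cells (1 of 10, beside 6.61%), neural progenitors and neuroblasts (1 of 10, beside 0.777%) and red blood cells (1 of 7, beside 4.93%). Whether the response to surgery differed between the genotypes was tested in 110 cases, with 0 called by edgeR where 1.38% of all genes were. Of these 110, 14 (12.7%) had an unadjusted p under 0.05, as did 17331 of 148686 tests of all genes (11.7%), and DESeq2 called 3 of the members' tests. The median fitted log2 fold change of the members was 0.07 between the MCAO/R groups, -0.08 between the sham groups, 0.23 with surgery in WT mice and 0.27 in Lrg1-/- mice, beside 0.024, -0.0037, 0.0011 and 0.012 over all genes. The comparisons share groups, so their counts are not independent.

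**Figure D1:**
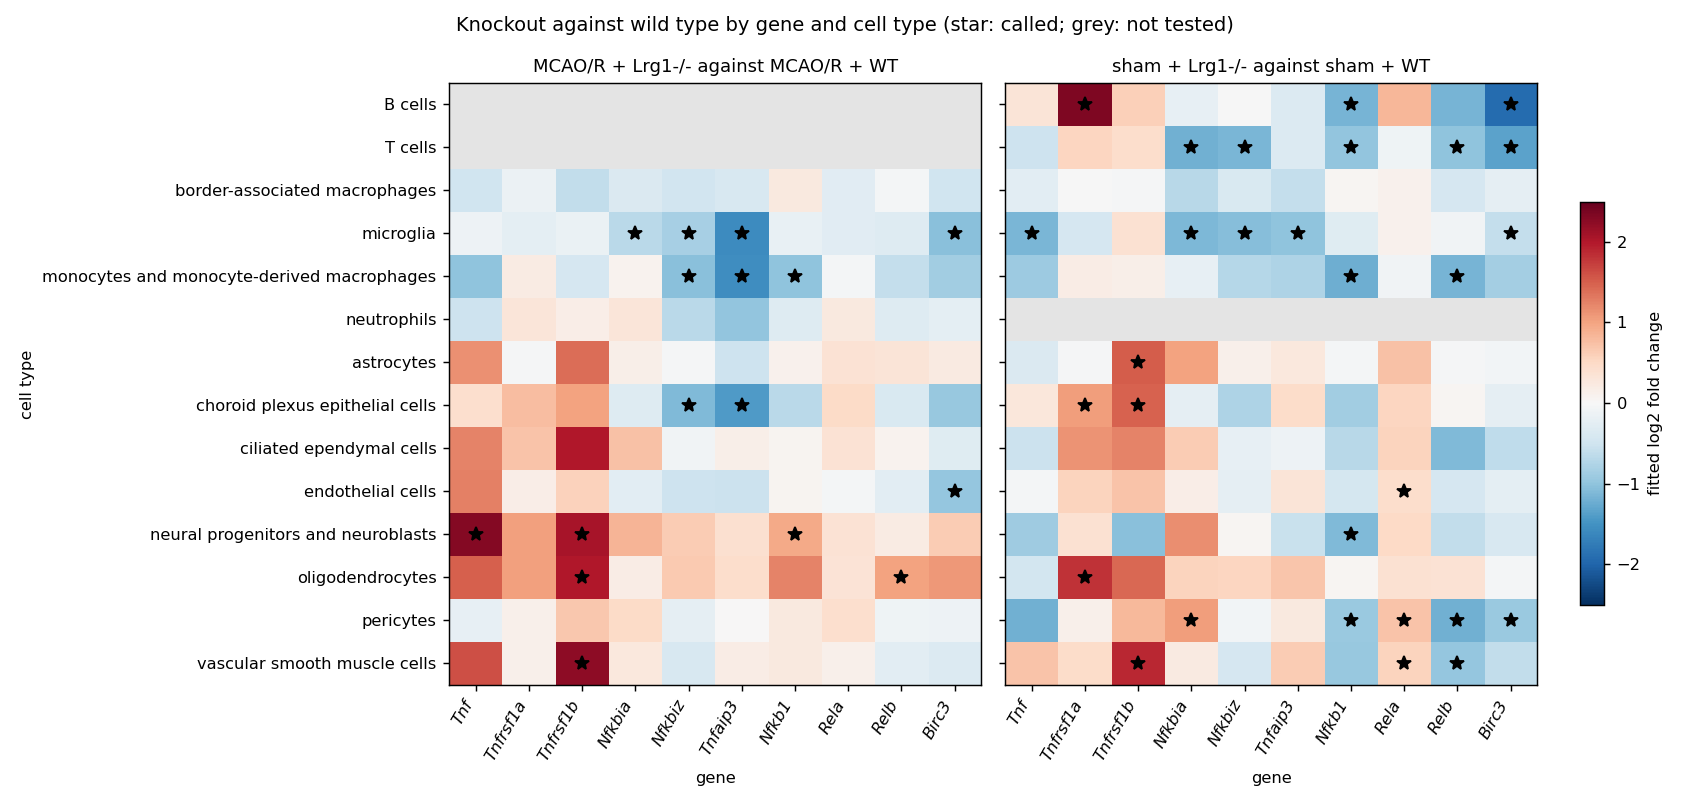
Fitted log2 fold change of each gene (columns) in each cell type (rows) for the Lrg1-/- against the WT group after MCAO/R and after sham surgery. The scale runs from blue (lower without Lrg1) to red (higher), with a star at each call and grey where no test was made. In microglia Tnfaip3 is at -1.57 after MCAO/R and -1.01 after sham surgery.

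NF-kappaB binds a short DNA motif, the kappaB site. The bases before the start of Tnf, Nfkbia and Tnfaip3 are printed because these genes moved with surgery or genotype in the results that follow. Among the 250 bases before the start of each gene, in RefSeq's promoter table of the GRCm38.p6 build, a match to the kappaB consensus on either strand stood in 7.25% of 32851 windows of all genes. The looser GGGNNNNNCC, on either strand and including the consensus matches that fit it, stood in 45.8%. Of the 10 members, 7 had a window (8 windows), of which 2 genes held the consensus and 7 the looser motif. The stretch of Nfkbia (chr12:55492648-55492897, minus strand) is shown for its 1 consensus match, in capitals, 29 to 20 bases before the start. That of Tnf (chr17:35202008-35202257, minus strand) is shown as the ligand's own promoter, with no consensus match in this window. The 30 bases of Tnfaip3 (chr10:19015411-19015440, minus strand) are shown for the match 12 to 3 bases before its RefSeq start. That start lies 247 bases inside the gene as GENCODE places it, so the stretch belongs to the GENCODE gene. For Nfkbia and Tnf the tables share the start.
Nfkbia: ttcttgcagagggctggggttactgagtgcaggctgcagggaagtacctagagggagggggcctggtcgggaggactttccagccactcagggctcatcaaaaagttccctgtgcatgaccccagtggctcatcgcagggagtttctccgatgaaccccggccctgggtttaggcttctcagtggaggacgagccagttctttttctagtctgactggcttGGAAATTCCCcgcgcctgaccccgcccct
Tnf: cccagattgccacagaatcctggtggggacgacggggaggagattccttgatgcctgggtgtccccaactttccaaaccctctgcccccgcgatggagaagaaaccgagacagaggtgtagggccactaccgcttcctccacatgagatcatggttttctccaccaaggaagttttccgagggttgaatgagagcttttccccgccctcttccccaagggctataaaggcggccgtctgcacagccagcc
Tnfaip3: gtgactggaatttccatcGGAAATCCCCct
The Tnfaip3 window held a further match, GGGACACCCC, 125 to 116 bases before the RefSeq start and thus also inside the GENCODE gene, which fits the consensus on both strands. A match describes letters and not a site in use.

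Tnf (chr17:35199381-35202007, minus strand, build GRCm38) was highest in myeloid cells. Microglia of sham + WT averaged 352 ± 38.8 CPM (SD, n = 3), above every library of border-associated macrophages (210.4 ± 23.5), which came next and overlapped with monocytes and monocyte-derived macrophages (202 ± 69.3). After MCAO/R in WT mice, microglia (753 ± 136, n = 2) and neutrophils (667 ± 54.0) led and overlapped, and all libraries of both lay above border-associated macrophages (321 ± 113). Without Lrg1, microglia did not stand apart in the sham group, where border-associated macrophages had 195 ± 80.2 CPM and microglia 180.3 ± 48.3 (n = 3 each), with overlapping ranges. In MCAO/R + Lrg1-/- microglia led, at 739.6 ± 207, overlapping with neutrophils at 396 ± 249 (n = 2). These levels are a description with no test between cell types.

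**Figure D2:**
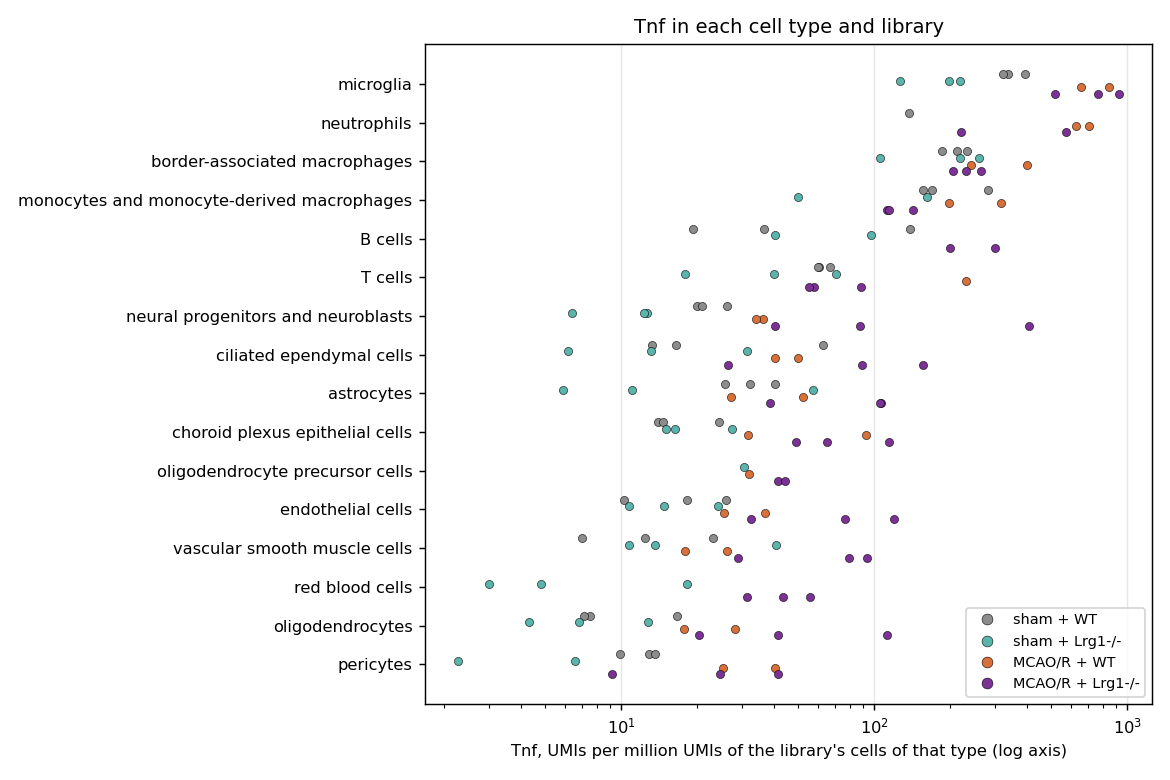
Tnf level (CPM, log axis) in each cell type, with 1 point per library coloured by group. Microglia of the MCAO/R groups run from 519.7 to 932 CPM, and the WT and Lrg1-/- points of those groups overlap. Neutrophil points of MCAO/R + WT fall within this range, and the lowest of MCAO/R + Lrg1-/- falls below it.

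In microglia summed over all their clusters, Tnf rose after MCAO/R in both genotypes and was lower without Lrg1 in the sham groups. It was not called with surgery inside the single clusters that could be fitted, cluster 2 for WT mice and cluster 7 for both genotypes, described further on. In WT mice cluster 2 held few of the sham microglia and cluster 7 few of the MCAO/R microglia. Tnf stood at 337, 395 and 322 CPM in sham + WT and 218, 126 and 197 in sham + Lrg1-/-. Tnf after MCAO/R was at 849 and 656 CPM in WT and 932, 768 and 519.7 in Lrg1-/- mice. In both genotypes every MCAO/R library lay above every sham library, while the MCAO/R groups overlapped. MCAO/R + WT was 2.16-fold above sham + WT (log2 fold change 1.11, SE 0.241, adjusted p = 0.0052). MCAO/R + Lrg1-/- was 4.33-fold above sham + Lrg1-/- (log2 fold change 2.11, SE 0.231, adjusted p = 4.9e-05). Sham + Lrg1-/- was 2.20-fold below sham + WT (log2 fold change -1.14, SE 0.224, adjusted p = 0.0032), without overlap. The MCAO/R groups gave no call between genotypes (log2 fold change -0.13, SE 0.244, adjusted p = 0.74). The test of whether the response to surgery differed between genotypes did not pass (difference of log2 fold changes 1.01, SE 0.333, adjusted p = 0.076). The call in WT mice narrowly missed the threshold without MCAO/R + WT replicate 1 (0.87, adjusted p = 0.054). The other Tnf calls in microglia held in all 11 repeats.

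The share of microglia with at least 1 Tnf UMI was also higher after MCAO/R in both genotypes. It was 57.6, 68.2 and 62.9% in sham + WT and 42.6, 34.9 and 43.2% in sham + Lrg1-/-. After MCAO/R the share was 86.6 and 72.5% in WT and 85.4, 77.5 and 71.6% in Lrg1-/- mice. The median depth of these cells ran from 4249 UMIs (sham + Lrg1-/- replicate 1) to 15580 (MCAO/R + Lrg1-/- replicate 1), so each cell was also thinned to 1000 UMIs. Thinned shares were 21.7, 24.5 and 19.9% in sham + WT, 13.7, 8.501 and 11.1% in sham + Lrg1-/-, 42.1 and 33.3% in MCAO/R + WT and 39.1, 34.2 and 28.7% in MCAO/R + Lrg1-/-. Oligodendrocytes, which should lack Tnf, had 4.10 to 33.5% of cells with a UMI unthinned (median depth 2698 to 15511 UMIs) and 0.409 to 11.5% thinned. Both shares were below those of the microglia of the same library in all 11 libraries.

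The microglia of the groups came largely from different clusters. In sham + WT most microglia lay in clusters 1 (43.5, 43.6 and 38.6% of each library's microglia) and 5 (27.8, 45.7 and 54.8%). In sham + Lrg1-/- they lay in clusters 1 (40.2, 57.6 and 42.6%) and 7 (50.5, 33.1 and 48.6%). MCAO/R + WT microglia were mainly of cluster 2 (50 and 81.2%) and, in replicate 1, of cluster 13 (35.5 and 2.47%). MCAO/R + Lrg1-/- microglia were split between clusters 9 (32.2, 39.0 and 49.3%), 13 (26.4, 50.8 and 19.3%) and 7 (26.1, 9.11 and 29.9%). Clusters 2, 7, 9 and 13 had at least 20 cells in all 5 MCAO/R libraries, and each was also fitted alone, an alternative added after the data were seen. Between the genotypes 8.26, 17, 4.09 and 4.81% of all genes were called in these clusters, in that order. Within cluster 9 Tnf was lower in MCAO/R + Lrg1-/- (859.6, 505 and 452 CPM) than in MCAO/R + WT (1210.1 and 1121 CPM), without overlap (log2 fold change -1.14, adjusted p = 0.044). It was not called in cluster 2 (-0.50, adjusted p = 0.35), cluster 7 (-0.57, adjusted p = 0.24) or cluster 13 (-0.09, adjusted p = 0.85). Surgery could be tested in cluster 2 for WT mice and in cluster 7 for both genotypes, where at least 2 libraries of each group held 20 cells, also an alternative added after the data were seen. It could not be tested in clusters 9 and 13. Cluster 2 held 2.12, 2.25 and 1.62% of the sham + WT microglia (102, 90 and 58 cells). Cluster 7 held 1.83 and 6.68% of the MCAO/R + WT microglia (73 and 289 cells). In cluster 2 Tnf stood at 634, 719.9 and 844 CPM in sham + WT and 529.9 and 600.1 in MCAO/R + WT, so that both MCAO/R libraries lay below the sham libraries, with no call (-0.42, adjusted p = 0.48). In cluster 7 the WT libraries stood at 355, 367 and 338 CPM after sham surgery and 274 and 327 after MCAO/R, again lower and not called (-0.29, adjusted p = 0.65). Cluster 7 of Lrg1-/- mice had 172, 131 and 238 CPM after sham surgery and 335, 99.4 and 227 after MCAO/R, with overlap (0.15, adjusted p = 0.81). The lower Tnf of sham + Lrg1-/- was called there too (-1.01, adjusted p = 0.015). In these clusters 8.69 and 10.9% of all genes were called with surgery in WT mice, 10% in cluster 7 of Lrg1-/- mice, and 22.9% between the sham groups.

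Outside microglia, Tnf rose after MCAO/R in few types, although its fitted change was positive in 11 of 11 types tested in WT mice and 14 of 14 in Lrg1-/- mice. Among WT mice it rose in pericytes, the mural cells of capillaries, from 12.9, 13.6 and 9.92 CPM in sham to 40.5 and 25.3 (log2 fold change 1.44, SE 0.338, adjusted p = 0.019). The Tnf call in pericytes of WT mice was lost without sham + WT replicates 2 and 3 and MCAO/R + WT replicate 1 (1.07 to 1.54, adjusted p 0.051 to 0.25). Tnf also missed the threshold with unnamed clusters added to their best type (0.29, adjusted p = 0.82). Among Lrg1-/- mice it rose in oligodendrocytes from 6.78, 4.33 and 12.8 to 20.3, 41.7 and 112 CPM (log2 fold change 2.998, SE 0.664, adjusted p = 0.012). Endothelial cells went from 14.7, 10.7 and 24.1 to 76.8, 32.6 and 119.8 CPM (2.14, adjusted p = 0.026). Choroid plexus epithelial cells went from 16.4, 15.04 and 27.3 to 114, 48.9 and 65.0 CPM (1.89, adjusted p = 0.029). In pericytes Tnf went from 6.58 and 2.26 to 9.19, 24.5 and 41.5 CPM (2.44, adjusted p = 0.041). In none of these cell types did the sham and MCAO/R libraries overlap. The Tnf call in oligodendrocytes was lost without sham + Lrg1-/- replicates 1 and 2 (2.75 to 2.91, adjusted p 0.059 to 0.071). Tnf also missed the threshold with cells thinned to 1000 UMIs (2.21, adjusted p = 0.095). The Tnf call in endothelial cells was lost without sham + Lrg1-/- replicates 1 and 2 (1.89 to 2.03, adjusted p 0.098 to 0.12). Tnf also missed the threshold with cells thinned to 1000 UMIs (1.85, adjusted p = 0.094) and with only the groups compared in the fit (2.11, adjusted p = 0.098). The Tnf call in choroid plexus epithelial cells was lost without sham + Lrg1-/- replicates 1 and 2 (1.72, adjusted p 0.13 to 0.18). The same Tnf call did not pass with only the groups compared in the fit (1.93, adjusted p = 0.058). The Tnf call in pericytes of Lrg1-/- mice was lost without sham + WT replicates 1, 2 and 3, sham + Lrg1-/- replicates 1 and 2 and MCAO/R + Lrg1-/- replicates 2 and 5 (1.98 to 3.49, adjusted p 0.0504 to 0.25). The same Tnf call did not pass with unnamed clusters added to their best type (1.32, adjusted p = 0.21) and with only the groups compared in the fit (2.38, adjusted p = 0.053). Pericyte sums were small, with 1 to 147 Tnf UMIs per library. In Lrg1-/- mice the 10 microglial markers summed to 745 to 1215 CPM in sham and 795 to 2219.5 after MCAO/R in oligodendrocytes (5 of 10 with the higher mean after MCAO/R) and to 906 to 1877 against 572 to 2045 in endothelial cells (3 of 10). In the choroid plexus they summed to 1361 to 1982 against 870.4 to 2084 CPM (1 of 10) and in pericytes to 407 to 616 against 423 to 651 (5 of 10). Oligodendrocytes should lack Tnf, and Tnf rose 4.33-fold in the microglia of the same mice. Neutrophil markers moved as well, some of them without a UMI in sham libraries. After MCAO/R in Lrg1-/- mice 7 of 7 had the higher mean in oligodendrocytes, endothelial cells and pericytes and 6 of 7 in the choroid plexus. In pericytes of WT mice 6 of 7 neutrophil markers and 2 of 10 microglial markers did. The part of microglial or neutrophil transcripts in the Tnf levels of the other cell types was not tested.

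Between genotypes after MCAO/R, Tnf was called in 1 of 12 types, neural progenitors and neuroblasts, at 36.4 and 34.1 CPM in MCAO/R + WT and 408, 40.7 and 88.0 in MCAO/R + Lrg1-/- (log2 fold change 2.29, SE 0.650, adjusted p = 0.041). Replicate 1 of MCAO/R + Lrg1-/-, with 52 such cells, held the high value. In neural progenitors and neuroblasts this Tnf call was lost without sham + WT replicates 1, 2 and 3, sham + Lrg1-/- replicate 2, MCAO/R + WT replicates 1 and 2 and MCAO/R + Lrg1-/- replicate 1 (1.01 to 2.35, adjusted p 0.054 to 0.22). The same Tnf call did not pass with only the groups compared in the fit (2.32, adjusted p = 0.12). Microglial transcripts moved with this result. The 10 microglial markers summed to 278 to 395 CPM in the progenitors of MCAO/R + WT and 994 to 2228 in MCAO/R + Lrg1-/-. Of the 10, 9 had the higher mean in the latter, and none was at 0. The same sum was 175 to 279.6 against 795 to 2219.5 in oligodendrocytes, 232 to 301 against 572 to 2045 in endothelial cells and 425 to 613 against 870.4 to 2084 in choroid plexus epithelial cells, with all 10 markers higher without Lrg1. In the progenitors 7 of 7 neutrophil markers, 6 of 7 T-cell markers and 7 of 8 endothelial markers were also higher without Lrg1 after MCAO/R. The part of all these transcripts in the Tnf levels of such cells was not tested. In neutrophils Tnf stood at 705 and 629 CPM in MCAO/R + WT and 220.1 and 572 in MCAO/R + Lrg1-/- (-0.52, adjusted p = 0.53). Only 1 sham library, of WT, held enough neutrophils (137 CPM).

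Across all 151 sums of library and cell type (16 types), the genes whose log2 level ran most like that of Tnf among 12490 genes were Ccl4 (Pearson r 0.921), Ccl3 (0.910) and Slc15a3 (0.906). Ccl3 and Ccl4 encode chemokines that draw immune cells, and Slc15a3 a peptide transporter. For Nfkbia the nearest was Mcl1 (0.892), a survival gene. Rhbdf2 (0.890), which encodes iRhom2, needed to shed tumor necrosis factor from the cell surface, and Ifnar2 (0.849), an interferon receptor gene, came next. The sums of a library share its depth and its free RNA, so these values describe likeness and carry no test.

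Both receptor genes were highest in myeloid cells from the blood. Tnfrsf1a (chr6:125349362-125362484, plus strand) encodes the receptor that can signal both inflammation and death. In sham + WT it was highest in monocytes and monocyte-derived macrophages (111 ± 11.4 CPM, SD, n = 3), followed by pericytes (90.5 ± 3.27) and border-associated macrophages (90.0 ± 9.88), which overlapped. Tnfrsf1b (chr4:145213463-145246870, minus strand) encodes a receptor that lacks a death domain and is found mainly on immune and endothelial cells. In sham + WT it was highest in monocytes and monocyte-derived macrophages (157 ± 23.5 CPM), then T cells (85.6 ± 14.2) and microglia (55.8 ± 4.71). After MCAO/R in WT mice neutrophils led for both, at 159 ± 35.9 CPM of Tnfrsf1a (n = 2), overlapping with pericytes, and 244 ± 48.9 CPM of Tnfrsf1b, above every other type.

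Tnfrsf1a rose after MCAO/R in the endothelium of WT mice. Endothelial cells had 43.9, 50.9 and 43.8 CPM in sham + WT and 52.3, 62.5 and 79.8 in sham + Lrg1-/-. Tnfrsf1a after MCAO/R was at 122 and 93.4 CPM in WT and 125, 141 and 95.2 in Lrg1-/- mice. In WT mice the MCAO/R libraries lay above all sham libraries (log2 fold change 1.26, SE 0.254, adjusted p = 0.014). The Tnfrsf1a call in endothelial cells was lost without sham + WT replicates 1 and 3 and MCAO/R + WT replicate 1 (1.01 to 1.24, adjusted p 0.052 to 0.18). The MCAO/R groups gave no call between genotypes there (0.16, adjusted p = 0.66). In oligodendrocytes Tnfrsf1a was low, at 4.39, 3.14 and 3.39 CPM in sham + WT and 7.28, 16.8 and 16.0 in sham + Lrg1-/-. Tnfrsf1a after MCAO/R was at 23.8 and 7.23 CPM in WT and 16.9, 31.7 and 37.3 in Lrg1-/- mice. It rose there after MCAO/R in WT mice (log2 fold change 1.98, SE 0.463, adjusted p = 0.0098). In these cells of WT mice 6 of 7 neutrophil markers and 0 of 10 microglial markers had the higher mean after MCAO/R, and their part was not tested. The Tnfrsf1a call in oligodendrocytes after MCAO/R was lost without MCAO/R + WT replicate 1 (0.88, adjusted p = 0.24). Tnfrsf1a also missed the threshold with cells thinned to 1000 UMIs (0.82, adjusted p = 0.34). It was higher in sham + Lrg1-/- than in sham + WT (1.81, adjusted p = 0.044). The Tnfrsf1a call in oligodendrocytes of the sham groups was lost without sham + WT replicates 1, 2 and 3, sham + Lrg1-/- replicates 2 and 5 and MCAO/R + Lrg1-/- replicate 2 (1.55 to 1.95, adjusted p 0.054 to 0.15). Tnfrsf1a also missed the threshold with cells thinned to 1000 UMIs (0.72, adjusted p = 0.61) and with a 10% mitochondrial limit (1.72, adjusted p = 0.068). Sham + Lrg1-/- was also higher in choroid plexus epithelial cells, at 32.0, 45.7 and 51.8 against 24.7, 21.3 and 25.9 CPM (1.04, adjusted p = 0.013). The Tnfrsf1a call in choroid plexus epithelial cells was lost without sham + WT replicate 2 (0.96, adjusted p = 0.072). Tnfrsf1a also missed the threshold with cells thinned to 1000 UMIs (1.01, adjusted p = 0.11). B cells had 38.0 and 75.9 CPM in sham + Lrg1-/- against 21.5, 9.61 and 7.70 in sham + WT (2.34, adjusted p = 0.028). The Tnfrsf1a call in B cells was lost without sham + WT replicates 2 and 3 and sham + Lrg1-/- replicate 5 (1.54 to 2.16, adjusted p 0.069 to 0.26).

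Other transcripts moved with the genotype in these B cells. The 6 B-cell markers summed to 3859, 4161 and 4864 CPM in sham + WT and 2831 and 594 in sham + Lrg1-/- (replicates 1 and 5), with all 6 lower without Lrg1 and none at 0. In sham + WT the haemoglobin sum was 40.6, 11.5 and 23.1 CPM and Ttr, a choroid plexus transcript, 303, 544 and 293 CPM. In sham + Lrg1-/- the haemoglobin sum was 24236 and 75518 CPM and Ttr 16135 and 51761 CPM. The 6 natural killer (NK) cell markers, all higher without Lrg1, summed to 0 to 17.3 against 492 and 1861 CPM. The 7 neutrophil markers, 6 of them higher, summed to 17.3 to 47.8 against 117 and 5111 CPM, and the 8 endothelial markers, 7 of them higher, to 604 to 1106 against 862 and 2978 CPM. Replicate 5 of sham + Lrg1-/- had the lowest B-cell sum and the highest of each of the other sums. Their part in the B-cell levels was not tested.

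In microglia Tnfrsf1b rose after MCAO/R in WT mice, and neither receptor was called between the genotypes. Tnfrsf1b stood at 50.7, 59.98 and 56.6 CPM in sham + WT and 73.8, 88.3 and 86.0 in sham + Lrg1-/-. Every sham + Lrg1-/- library thus lay above every sham + WT library, without a call. Tnfrsf1b after MCAO/R was at 95.0 and 79.8 CPM in WT and 73.9, 93.7 and 78.9 in Lrg1-/- mice. Its rise in WT mice (log2 fold change 0.66, SE 0.162, adjusted p = 0.011) was lost without MCAO/R + WT replicate 1 (0.49, adjusted p = 0.12). Tnfrsf1b in microglia missed the threshold with clusters 8 and 29 added (0.65, adjusted p = 0.087). It was called neither within cluster 2 (0.09, adjusted p = 0.88) nor within cluster 7 (0.19, adjusted p = 0.66). Tnfrsf1a in microglia stood at 85.2, 89.2 and 76.9 CPM in sham + WT and 63.9, 69.3 and 79.9 in sham + Lrg1-/-. Tnfrsf1a after MCAO/R was at 92.3 and 95.2 CPM in WT and 68.0, 92.3 and 86.5 in Lrg1-/- mice. The MCAO/R groups overlapped (-0.25, adjusted p = 0.30).

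Outside microglia, Tnfrsf1b was higher without Lrg1 in several cell types where it is scarce. In vascular smooth muscle cells it stood at 2.30, 2.94 and 2.55 CPM in sham + WT and 8.32, 9.19 and 10.5 in sham + Lrg1-/-. Tnfrsf1b after MCAO/R was at 2.63 and 1.98 CPM in WT and 7.78, 7.99 and 16.2 in Lrg1-/- mice. The genotypes differed without overlap after sham surgery (log2 fold change 1.89, SE 0.347, adjusted p = 0.0081) and after MCAO/R (2.23, adjusted p = 0.011). These sums were of 6 to 62 UMIs per library. The Tnfrsf1b call in vascular smooth muscle cells after MCAO/R was lost without MCAO/R + WT replicates 1 and 2 (2.02 to 2.44, adjusted p 0.056 to 0.13). Tnfrsf1b also missed the threshold with only the groups compared in the fit (2.24, adjusted p = 0.070). Tnfrsf1b in vascular smooth muscle cells of the sham groups missed the threshold with predicted doublets kept (1.005, adjusted p = 0.092). After MCAO/R it was also higher in neural progenitors and neuroblasts, at 11.6, 11.1 and 20.4 against 3.64 and 4.06 CPM (2.06, adjusted p = 0.014). The Tnfrsf1b call in neural progenitors and neuroblasts was lost without MCAO/R + WT replicates 1 and 2 and MCAO/R + Lrg1-/- replicate 5 (1.66 to 2.14, adjusted p 0.096 to 0.13). Oligodendrocytes had 3.39, 11.8 and 23.3 CPM in MCAO/R + Lrg1-/- against 4.67 and 2.70 in MCAO/R + WT, with overlapping ranges (1.999, adjusted p = 0.023). The Tnfrsf1b call in oligodendrocytes was lost without MCAO/R + WT replicate 2 and MCAO/R + Lrg1-/- replicate 5 (1.24 to 1.69, adjusted p 0.090 to 0.17). Tnfrsf1b also missed the threshold with only the groups compared in the fit (2.03, adjusted p = 0.10). In the sham groups it was higher without Lrg1 in astrocytes, at 9.48, 17.6 and 19.8 against 7.37, 4.60 and 5.39 CPM (1.52, adjusted p = 0.043). The Tnfrsf1b call in astrocytes was lost without sham + WT replicates 1, 2 and 3, sham + Lrg1-/- replicates 2 and 5 and MCAO/R + Lrg1-/- replicate 2 (1.30 to 1.75, adjusted p 0.056 to 0.17). Tnfrsf1b also missed the threshold with only the groups compared in the fit (1.52, adjusted p = 0.0503). Choroid plexus epithelial cells had 8.64, 11.8 and 15.4 CPM in sham + Lrg1-/- against 4.83, 6.27 and 2.70 in sham + WT (1.48, adjusted p = 0.023). The Tnfrsf1b call in choroid plexus epithelial cells was lost without sham + WT replicates 1, 2 and 3 and sham + Lrg1-/- replicate 5 (1.22 to 1.84, adjusted p 0.054 to 0.087). The same Tnfrsf1b call did not pass with a 10% mitochondrial limit (1.33, adjusted p = 0.11).

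The microglial markers again moved with the receptor. In vascular smooth muscle cells they summed to 343 to 975 CPM in sham + WT, 1019 to 2047 in sham + Lrg1-/-, 206 to 320.4 in MCAO/R + WT and 613 to 1756 in MCAO/R + Lrg1-/-. All 10 were higher without Lrg1 after both surgeries. Between the sham groups they summed to 660.3 to 706 CPM in WT against 1361 to 1982 in Lrg1-/- in choroid plexus epithelial cells (10 of 10 higher), to 798 to 1418 against 1364 to 2452 CPM in astrocytes (7 of 10 higher) and to 355 to 654 against 745 to 1215 CPM in oligodendrocytes (9 of 10 higher). The endothelial markers of these astrocytes summed to 656 to 1065 against 499 to 2569 CPM (8 of 8 higher). After MCAO/R 7 of 7 neutrophil markers were higher without Lrg1 in vascular smooth muscle cells, oligodendrocytes and neural progenitors and neuroblasts. Between the sham groups 7 of 7 were higher in vascular smooth muscle cells and choroid plexus epithelial cells, and 5 of 7 in astrocytes and oligodendrocytes. The part of these markers in the levels of either receptor was not tested.

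The feedback genes were lower without Lrg1 in microglia. After MCAO/R, Tnfaip3 was 2.97-fold lower, Nfkbiz 1.77-fold and Nfkbia 1.59-fold, while the Tnf levels of the same libraries overlapped between the genotypes. All 3 were lower without Lrg1 in the sham groups as well.

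Tnfaip3 (chr10:19000910-19015657, minus strand), the gene of the A20 brake, stood at 800.2, 1026 and 1013 CPM in sham + WT and 606, 483 and 501 in sham + Lrg1-/-. Tnfaip3 after MCAO/R was at 950.0 and 1116 CPM in WT and 377, 386 and 344 in Lrg1-/- mice. Every Lrg1-/- library lay below every WT library of the same surgery, and the MCAO/R + Lrg1-/- libraries were the lowest of all. The difference was significant after MCAO/R (log2 fold change -1.57, SE 0.154, adjusted p = 3.4e-05) and after sham surgery (log2 fold change -1.01, SE 0.141, adjusted p = 3.2e-04), in all 11 repeats of each. Surgery itself gave no call in WT mice (0.13, adjusted p = 0.61), whereas in Lrg1-/- mice Tnfaip3 fell (log2 fold change -0.43, SE 0.140, adjusted p = 0.028). The Tnfaip3 call in microglia of Lrg1-/- mice was lost without sham + Lrg1-/- replicate 1 and MCAO/R + Lrg1-/- replicates 1 and 5 (-0.41 to -0.32, adjusted p 0.059 to 0.13). Tnfaip3 also missed the threshold with clusters 8 and 29 added (-0.55, adjusted p = 0.068). The difference between these responses did not pass its own test (-0.56, adjusted p = 0.11).

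Nfkbiz (chr16:55811375-55838899, minus strand) stood at 1316, 1655 and 1421 CPM in sham + WT and 959.9, 671 and 738 in sham + Lrg1-/-. Nfkbiz after MCAO/R was at 1675 and 1979 CPM in WT and 1122, 1064 and 1090.0 in Lrg1-/- mice. No Lrg1-/- library overlapped with the WT libraries of the same surgery, after MCAO/R (log2 fold change -0.83, SE 0.165, adjusted p = 0.0040) or sham surgery (log2 fold change -1.06, SE 0.152, adjusted p = 3.8e-04). Both calls held in all 11 repeats. Over all microglia Nfkbiz rose after MCAO/R in Lrg1-/- mice (log2 fold change 0.56, SE 0.151, adjusted p = 0.011), and it was not called in WT mice (0.32, adjusted p = 0.20). The Nfkbiz call in microglia of Lrg1-/- mice was lost without sham + Lrg1-/- replicate 2 (0.39, adjusted p = 0.086). Nfkbiz also missed the threshold with clusters 8 and 29 added (0.43, adjusted p = 0.17).

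Nfkbia (chr12:55489410-55492647, minus strand), which encodes the cytoplasmic inhibitor, stood at 1703, 1736 and 1595 CPM in sham + WT and 932, 636 and 1048 in sham + Lrg1-/-. Nfkbia after MCAO/R was at 2231 and 2613 CPM in WT and 1576, 1752 and 1509 in Lrg1-/- mice. No Lrg1-/- library of a surgery reached the WT libraries of that surgery. It was lower without Lrg1 after sham surgery (log2 fold change -1.12, SE 0.174, adjusted p = 7.0e-04), a call that held in all repeats. It was also lower after MCAO/R (log2 fold change -0.67, SE 0.190, adjusted p = 0.024). The Nfkbia call in microglia after MCAO/R was lost without MCAO/R + WT replicate 2 and MCAO/R + Lrg1-/- replicates 1 and 5 (-0.64 to -0.60, adjusted p 0.053 to 0.10). Nfkbia also missed the threshold with only the groups compared in the fit (-0.73, adjusted p = 0.059). Over all microglia it rose with surgery in Lrg1-/- mice (log2 fold change 0.98, SE 0.174, adjusted p = 7.2e-04) and missed the threshold in WT mice (0.53, adjusted p = 0.062), although both MCAO/R + WT libraries lay above all sham + WT libraries.

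**Figure D3:**
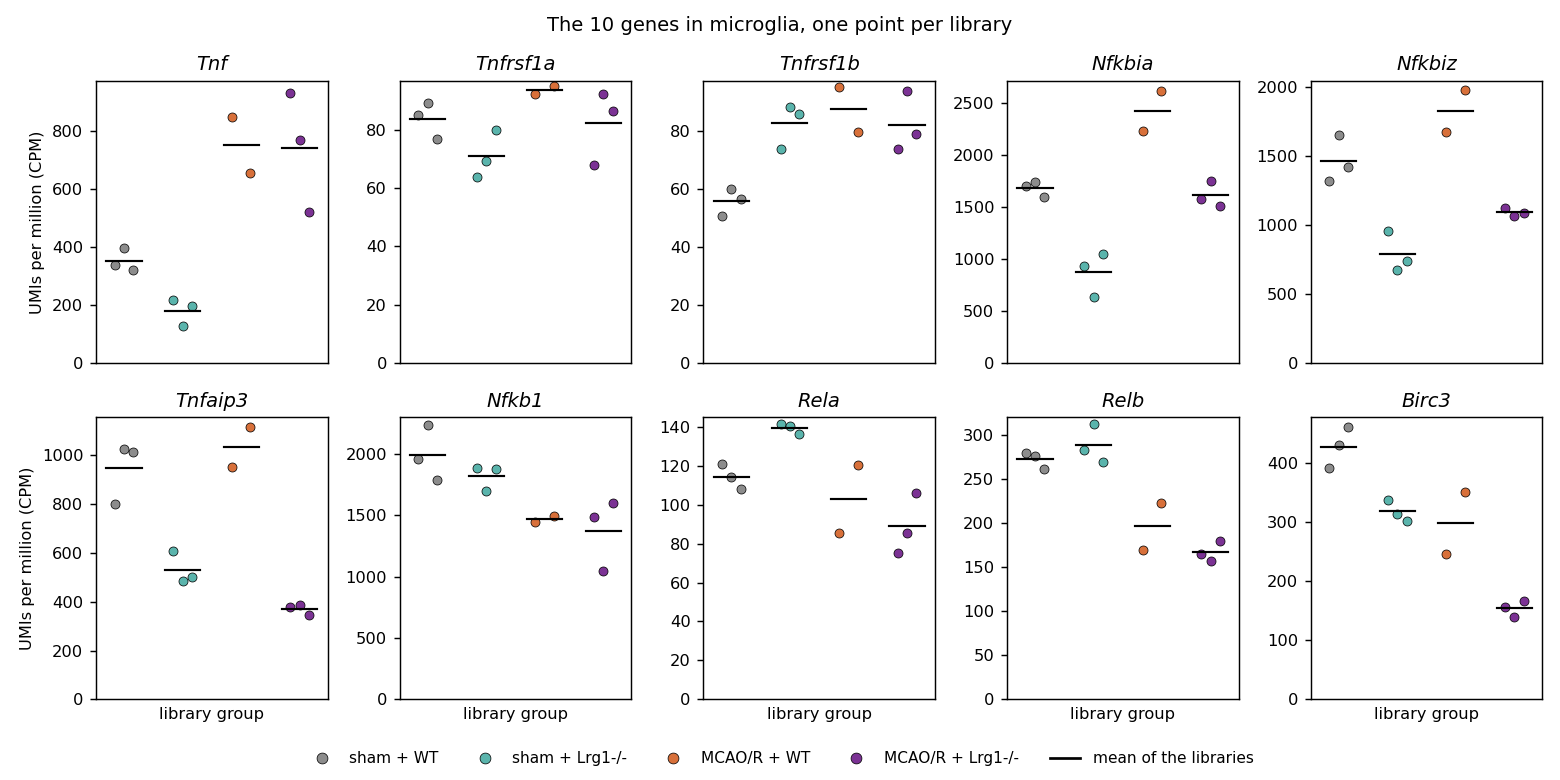
Levels (CPM, each panel on its own axis from 0) of the 10 genes in microglia, with 1 point per library, the 4 groups along the horizontal axis and a bar at each mean. The Tnf panel shows both MCAO/R groups above both sham groups, and in the Tnfaip3 panel the MCAO/R + Lrg1-/- libraries (344 to 386 CPM) lie below all others.

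The same direction was seen inside single microglial clusters, which were drawn from the expression of other genes with the 10 members left out. Tnfaip3 was lower in MCAO/R + Lrg1-/- in each of the 4 clusters shared by the MCAO/R libraries. The values were -1.37, adjusted p = 5.6e-04 in cluster 2, -1.04, adjusted p = 2.6e-04 in cluster 7, -1.50, adjusted p = 0.0077 in cluster 9 and -1.29, adjusted p = 0.0083 in cluster 13. In cluster 9 it stood at 786 and 889 CPM in MCAO/R + WT and 293, 382 and 322 in MCAO/R + Lrg1-/-, without overlap. In cluster 13 it stood at 975 and 763 against 405, 390.2 and 381 CPM, also without overlap. Nfkbia was lower in clusters 2 (-0.89, adjusted p = 0.0088), 7 (-1.36, adjusted p = 8.0e-05) and 9 (-1.06, adjusted p = 0.016) but not called in cluster 13 (-0.21, adjusted p = 0.55). Nfkbiz was lower in clusters 2 (-0.74, adjusted p = 0.013) and 7 (-1.04, adjusted p = 5.1e-04). It missed the threshold in clusters 9 (-0.63, adjusted p = 0.058) and 13 (-0.63, adjusted p = 0.067). Some of these sums came from few cells. Cluster 2 held 29, 32 and 65 cells of MCAO/R + Lrg1-/- against 1998 and 3511 of MCAO/R + WT. Cluster 7 held 73 and 289 cells of MCAO/R + WT. Replicate 1 of MCAO/R + Lrg1-/- had 68, 84 and 69 cells in clusters 7, 9 and 13.

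Between the sham groups, cluster 7 also held the lower levels without Lrg1 of Nfkbia (-0.92, adjusted p = 9.1e-04), Nfkbiz (-0.63, adjusted p = 0.0076) and Tnfaip3 (-0.47, adjusted p = 0.022). The changes with surgery in Lrg1-/- mice were not called for Nfkbia or Nfkbiz in this cluster. Nfkbia stood there at 967, 804 and 1189.6 CPM in sham + Lrg1-/- and 909, 1022 and 1241 in MCAO/R + Lrg1-/- (-0.0027, adjusted p = 0.996). Nfkbiz stood at 825, 778 and 715 against 603, 911 and 815 CPM (-0.09, adjusted p = 0.77). Both pairs of groups overlapped. The fall of Tnfaip3 in these mice was called in cluster 7 as well, from 513, 429 and 475 to 382, 337 and 340.3 CPM (-0.54, adjusted p = 0.023). In WT mice surgery gave no call for Nfkbia, Nfkbiz or Tnfaip3 in cluster 2 or 7. Cluster 1, which held much of the sham microglia of both genotypes, was not fitted alone. Nfkbia stood there at 1814, 1919 and 1789 CPM in sham + WT and 801, 525 and 893 in sham + Lrg1-/-. Nfkbiz (1287, 1611 and 1398 against 1005, 574 and 689) and Tnfaip3 (762, 931 and 898 against 715, 477 and 548) did not overlap either.

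**Figure D4:**
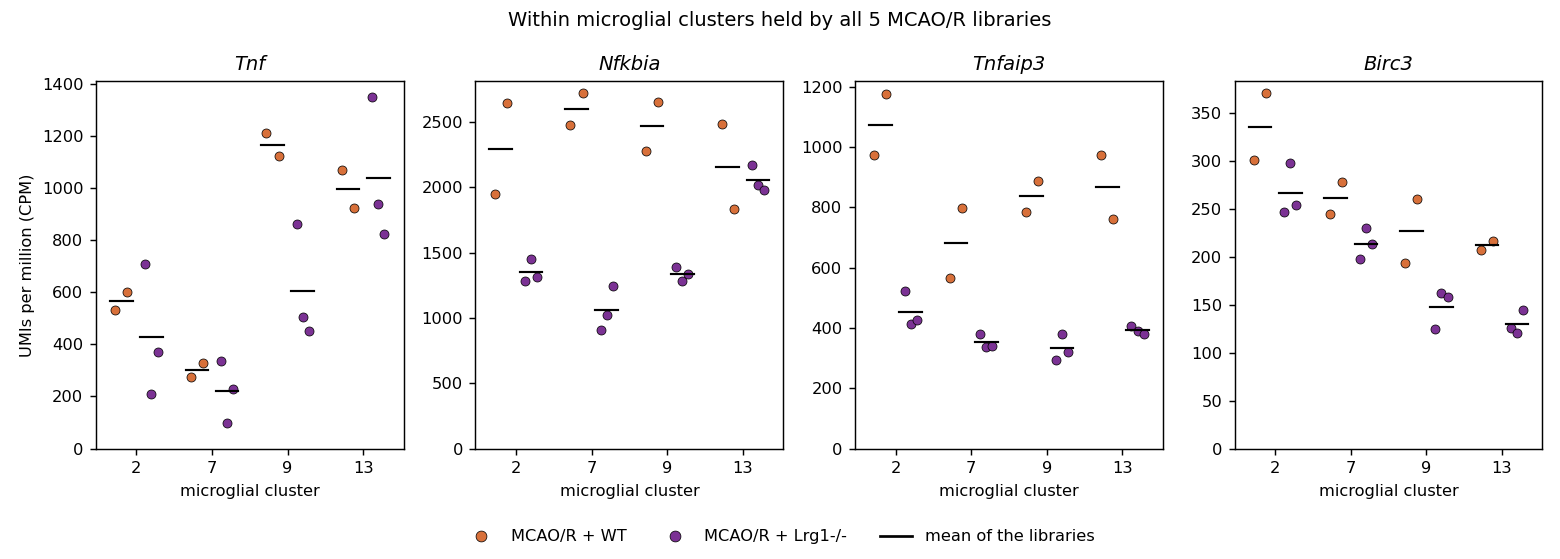
Levels (CPM) of Tnf, Nfkbia, Tnfaip3 and Birc3 in microglial clusters 2, 7, 9 and 13, with 1 point per MCAO/R library coloured by group and a bar at each mean. In clusters 2, 7, 9 and 13 the MCAO/R + Lrg1-/- points of Tnfaip3 lie below the MCAO/R + WT points.

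Other transcripts moved with these feedback genes. The 14 immediate early and stress genes, which also rise while tissue is digested, summed in microglia to 39683 to 42652 CPM in sham + WT and 20815 to 24822 in sham + Lrg1-/-. After MCAO/R this sum was 35287 to 40084 CPM in WT and 14242 to 18657 in Lrg1-/- mice, and the genotypes did not overlap after either surgery. The haemoglobin sum separated the genotypes too, in the opposite direction. The 10 microglial markers, all of them read in every group, summed to 10968 to 12198 CPM in sham + WT, 8602 to 10142 in sham + Lrg1-/-, 3833 to 4669 in MCAO/R + WT and 7166 to 8194 in MCAO/R + Lrg1-/-. After MCAO/R each of the 10 had a higher mean without Lrg1, and after sham surgery 1 of the 10 did. The part of dissociation, free RNA or cell state in the levels of Tnfaip3, Nfkbiz and Nfkbia was not tested.

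**Figure D5:**
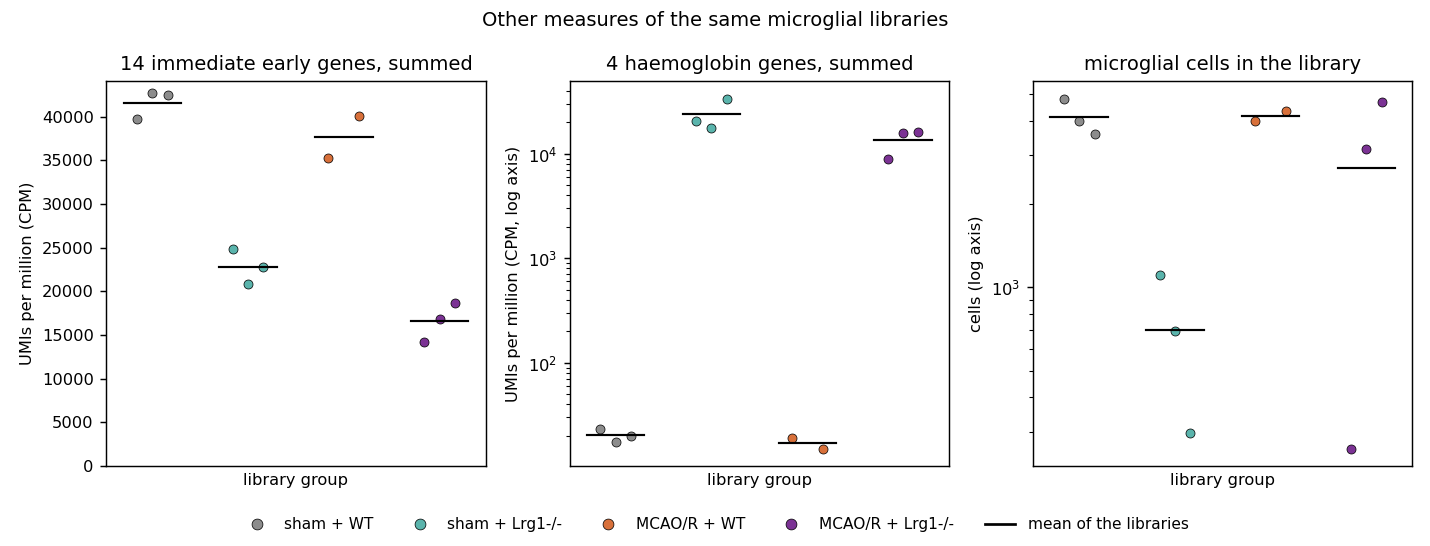
Summed levels in microglia (CPM) of the immediate early and stress genes and of the haemoglobin genes (log axis), and the number of microglial cells (log axis). Each point is 1 library, by group. The immediate early sum lies at 14242 to 18657 CPM in MCAO/R + Lrg1-/- and 35287 to 40084 in MCAO/R + WT.

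After MCAO/R, Tnfaip3 and Nfkbiz were also lower without Lrg1 in blood-derived macrophages and in the choroid plexus. The MCAO/R + WT libraries held few of these cells, 61 and 20 monocytes and monocyte-derived macrophages and 111 and 29 choroid plexus epithelial cells. The MCAO/R + Lrg1-/- libraries held 38, 885 and 720 of the former and 1486, 2112 and 1515 of the latter. In monocytes and monocyte-derived macrophages Tnfaip3 stood at 417, 371 and 524 CPM in sham + WT and 343 and 178 in sham + Lrg1-/-. Tnfaip3 after MCAO/R was at 542 and 764 CPM in WT and 261, 188 and 186 in Lrg1-/- mice. The MCAO/R groups did not overlap (log2 fold change -1.55, SE 0.274, adjusted p = 0.010). The Tnfaip3 call in monocytes and monocyte-derived macrophages was lost without MCAO/R + WT replicate 2 (-1.27, adjusted p = 0.073). Nfkbiz in these cells was at 745 and 1103 CPM in MCAO/R + WT and 512, 389 and 373 in MCAO/R + Lrg1-/- (log2 fold change -1.04, SE 0.264, adjusted p = 0.041). The Nfkbiz call in monocytes and monocyte-derived macrophages was lost without sham + WT replicates 1 and 2, MCAO/R + WT replicates 1 and 2 and MCAO/R + Lrg1-/- replicates 2 and 5 (-1.28 to -0.72, adjusted p 0.052 to 0.24). Nfkbiz also missed the threshold with only the groups compared in the fit (-1.07, adjusted p = 0.070). In choroid plexus epithelial cells, which make cerebrospinal fluid, Tnfaip3 stood at 45.6, 77.0 and 41.1 CPM in sham + WT and 68.1, 66.4 and 66.8 in sham + Lrg1-/-. Tnfaip3 after MCAO/R was at 96.0 and 144 CPM in WT and 28.98, 34.0 and 50.5 in Lrg1-/- mice. The MCAO/R groups did not overlap here either (log2 fold change -1.42, SE 0.283, adjusted p = 0.0049). The Tnfaip3 call in choroid plexus epithelial cells was lost without MCAO/R + WT replicate 2 (-1.12, adjusted p = 0.072). Tnfaip3 also missed the threshold with cells thinned to 1000 UMIs (-1.17, adjusted p = 0.20). Nfkbiz in the choroid plexus was at 289 and 353 CPM in MCAO/R + WT against 80.1, 104 and 198 in MCAO/R + Lrg1-/- (-1.11, adjusted p = 0.026). The Nfkbiz call in choroid plexus epithelial cells was lost without MCAO/R + WT replicates 1 and 2 and MCAO/R + Lrg1-/- replicates 1 and 2 (-1.14 to -0.88, adjusted p 0.059 to 0.16). Nfkbiz also missed the threshold with predicted doublets kept (-0.84, adjusted p = 0.065) and with only the groups compared in the fit (-1.09, adjusted p = 0.071). The immediate early sum was lower without Lrg1 in both cell types. It was 14212 to 16193 against 6212 to 7846 CPM in monocytes and monocyte-derived macrophages and 7770.4 to 10216 against 4686 to 6229 in choroid plexus epithelial cells, and its part was not tested.

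Nfkbia rose after MCAO/R in oligodendrocytes, the myelin-forming cells, of both genotypes. It stood there at 158, 101 and 85.3 CPM in sham + WT and 173, 151 and 172 in sham + Lrg1-/-. Nfkbia after MCAO/R was at 418 and 443 CPM in WT and 262, 381 and 742 in Lrg1-/- mice. In each genotype every MCAO/R library lay above every sham library. The rise held in all repeats in WT mice (log2 fold change 1.83, SE 0.347, adjusted p = 0.0029), and it was also called in Lrg1-/- mice (1.46, adjusted p = 0.013). The Nfkbia call in oligodendrocytes of Lrg1-/- mice was lost without sham + Lrg1-/- replicates 1 and 2 (1.40 to 1.51, adjusted p 0.052 to 0.059). Nfkbia also missed the threshold with cells thinned to 1000 UMIs (1.31, adjusted p = 0.11). Nfkbia in oligodendrocytes of WT mice missed the threshold with cells thinned to 1000 UMIs (1.17, adjusted p = 0.13). Markers of other cell types moved in these oligodendrocytes. After MCAO/R 6 of 7 neutrophil, 3 of 7 T-cell and 0 of 10 microglial markers had the higher mean in WT mice. In Lrg1-/- mice 7 of 7, 6 of 7 and 5 of 10 did, and their part in Nfkbia was not tested. In border-associated macrophages Nfkbia rose in Lrg1-/- mice, from 1152, 792 and 863 to 1516, 2058 and 1738 CPM (log2 fold change 0.96, SE 0.184, adjusted p = 0.0046), in all repeats. Nfkbia in border-associated macrophages missed the threshold with cells thinned to 1000 UMIs (0.78, adjusted p = 0.070). T cells differed between the sham groups. Their Nfkbia was at 1265, 1151 and 1204 CPM in WT and 499, 519 and 493 in Lrg1-/- (log2 fold change -1.20, SE 0.163, adjusted p = 3.4e-04). Their Nfkbiz was at 382, 364 and 447 against 203, 213 and 98.7 CPM (-1.14, adjusted p = 0.0056), and both calls held in all repeats. Nfkbiz in T cells missed the threshold with cells thinned to 1000 UMIs (-0.89, adjusted p = 0.12). Other sums moved with the genotype in these T cells. The immediate early and stress genes summed to 15437 to 24282 CPM in sham + WT and 7987 to 10771 in sham + Lrg1-/-. The 6 NK cell markers, all higher without Lrg1, summed to 485 to 989 against 2477 to 4524 CPM. The 8 endothelial markers, all lower, summed to 4796 to 7424 against 834 to 2439 CPM, and the T-cell markers, 6 of 7 higher, to 2266 to 2449 against 2157 to 3153 CPM. The part of these in the T-cell calls was not tested. In pericytes Nfkbia went the other way, at 1548, 1210.4 and 1146 CPM in sham + WT and 2851 and 2060.5 in sham + Lrg1-/- (1.05, adjusted p = 0.0037). The Nfkbia call in pericytes was lost without sham + Lrg1-/- replicate 1 (0.78, adjusted p = 0.076). Red blood cells were numerous enough only without Lrg1. Tnfaip3 was lower there after MCAO/R, at 37.4, 46.6 and 25.4 CPM in sham against 11.2, 27.4 and 31.8, with overlapping ranges (-1.21, adjusted p = 0.048). The Tnfaip3 call in red blood cells was lost without sham + Lrg1-/- replicates 1, 2 and 5 and MCAO/R + Lrg1-/- replicate 1 (-1.35 to -1.01, adjusted p 0.056 to 0.18). Tnfaip3 also missed the threshold with predicted doublets kept (-1.20, adjusted p = 0.051) and with no filter on low counts (-0.98, adjusted p = 0.063).

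The subunit genes did not move together in microglia. Nfkb1 (chr3:135584655-135691547, minus strand), which encodes the p105 precursor of p50, stood at 1963, 2240.3 and 1787 CPM in sham + WT and 1887, 1698 and 1879 in sham + Lrg1-/-. Nfkb1 after MCAO/R was at 1443 and 1499 CPM in WT and 1484, 1045 and 1601 in Lrg1-/- mice. In microglia as a whole no comparison was called, neither the genotypes after MCAO/R (-0.19, adjusted p = 0.45) and sham surgery (-0.31, adjusted p = 0.16) nor surgery in WT mice (-0.44, adjusted p = 0.086) and Lrg1-/- mice (-0.32, adjusted p = 0.12). Within single clusters Nfkb1 was higher in MCAO/R + Lrg1-/- than in MCAO/R + WT in cluster 7 (0.72, adjusted p = 0.011). It was not called in clusters 2 (0.17, adjusted p = 0.64), 9 (-0.04, adjusted p = 0.93) and 13 (-0.92, adjusted p = 0.067). With surgery it fell within clusters 2 (-0.87, adjusted p = 0.017) and 7 (-1.19, adjusted p = 3.3e-04) of WT mice and was not called in cluster 7 of Lrg1-/- mice (-0.29, adjusted p = 0.26). Rela (chr19:5637483-5648130, plus strand), the gene of p65, stood at 121, 114 and 108 CPM in sham + WT and 141, 141 and 136 in sham + Lrg1-/-. Rela after MCAO/R was at 85.6 and 121 CPM in WT and 75.0, 85.3 and 106 in Lrg1-/- mice. It fell after MCAO/R in Lrg1-/- mice in all repeats (log2 fold change -0.54, SE 0.158, adjusted p = 0.016). Rela in microglia missed the threshold with clusters 8 and 29 added (-0.56, adjusted p = 0.053). Relb (chr7:19606217-19629438, minus strand), a subunit of the non-canonical branch, stood at 280.0, 277 and 262 CPM in sham + WT and 284, 313 and 269.8 in sham + Lrg1-/-. Relb after MCAO/R was at 170.2 and 224 CPM in WT and 165, 157 and 179.7 in Lrg1-/- mice. With surgery it fell without overlap in WT mice (log2 fold change -0.47, SE 0.134, adjusted p = 0.023). The fall in Lrg1-/- mice, also without overlap, held in all repeats (log2 fold change -0.69, SE 0.120, adjusted p = 6.4e-04). The Relb call in microglia of WT mice was lost without sham + WT replicates 1 and 2 and MCAO/R + WT replicate 1 (-0.48 to -0.32, adjusted p 0.055 to 0.24). Relb also missed the threshold with clusters 8 and 29 added (-0.47, adjusted p = 0.18). Between the MCAO/R groups neither Rela (-0.28, adjusted p = 0.27) nor Relb (-0.32, adjusted p = 0.10) was called in microglia. Within clusters the fall of Relb in WT mice was called in cluster 7 (-0.65, adjusted p = 0.024) and not in cluster 2 (-0.31, adjusted p = 0.30). In cluster 7 of Lrg1-/- mice neither Rela (-0.32, adjusted p = 0.23) nor Relb (-0.35, adjusted p = 0.13) was called with surgery.

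Outside microglia Nfkb1 was lower without Lrg1 in monocytes and monocyte-derived macrophages after both surgeries and in T cells, B cells and pericytes after sham surgery. It was not called in neutrophils after MCAO/R (-0.32, adjusted p = 0.64). In monocytes and monocyte-derived macrophages it stood at 1100.1, 1609.9 and 1357 CPM in sham + WT and 726 and 467 in sham + Lrg1-/-. Nfkb1 after MCAO/R was at 1519 and 1210.2 CPM in WT and 541, 628 and 717 in Lrg1-/- mice. It was lower in Lrg1-/- mice after MCAO/R (log2 fold change -1.01, SE 0.243, adjusted p = 0.036) and after sham surgery (-1.21, adjusted p = 0.033). The Nfkb1 call in monocytes and monocyte-derived macrophages after MCAO/R was lost without MCAO/R + WT replicates 1 and 2 and MCAO/R + Lrg1-/- replicate 2 (-1.15 to -0.82, adjusted p 0.081 to 0.25). Nfkb1 also missed the threshold with cells thinned to 1000 UMIs (-0.58, adjusted p = 0.18) and with only the groups compared in the fit (-1.05, adjusted p = 0.068). The Nfkb1 call in monocytes and monocyte-derived macrophages after sham surgery was lost without sham + WT replicates 1, 2 and 3 and sham + Lrg1-/- replicates 1 and 5 (-1.57 to -0.95, adjusted p 0.0502 to 0.29). Nfkb1 also missed the threshold with cells thinned to 1000 UMIs (-0.92, adjusted p = 0.083). Other sums moved with the genotype in these monocytes and macrophages. The microglial markers summed to 1666 to 1938 CPM in sham + WT against 1216 to 1502 in sham + Lrg1-/- (0 of 10 higher without Lrg1) and to 657 to 762 against 825 to 1202 CPM after MCAO/R (10 of 10 higher). The haemoglobin genes summed to 11.6 to 26.5 against 5809 to 7104 CPM after sham surgery and 18.2 to 38.8 against 2579 to 16121 after MCAO/R, and the immediate early genes to 14384 to 23141 against 9969.8 to 10541 CPM after sham surgery. Their part in the calls of these cells was not tested. T cells had 972, 841 and 712 CPM in sham + WT against 406, 509 and 317 in sham + Lrg1-/- (-0.98, adjusted p = 0.0036), a call that held in all repeats. B cells had 803, 684 and 739 against 352 and 236 CPM (-1.16, adjusted p = 0.028). The Nfkb1 call in B cells was lost without sham + WT replicates 1, 2 and 3, sham + Lrg1-/- replicate 5 and MCAO/R + Lrg1-/- replicates 2 and 5 (-1.23 to -1.04, adjusted p 0.055 to 0.15). Nfkb1 also missed the threshold with cells thinned to 1000 UMIs (-0.996, adjusted p = 0.11) and with only the groups compared in the fit (-1.12, adjusted p = 0.054). The sums of other transcripts given above for T cells and B cells moved with these calls, and their part was not tested. Pericytes were lower as well in the sham groups, at 210.3, 234 and 151 CPM in WT against 109 and 79.2 (-0.93, adjusted p = 0.021). The Nfkb1 call in pericytes after sham surgery was lost without sham + WT replicate 2 and sham + Lrg1-/- replicates 1 and 2 (-1.21 to -0.75, adjusted p 0.051 to 0.19). The same Nfkb1 call did not pass with cells thinned to 1000 UMIs (-1.60, adjusted p = 0.12), with predicted doublets kept (-0.30, adjusted p = 0.41) and with unnamed clusters added to their best type (-0.75, adjusted p = 0.16). In pericytes of Lrg1-/- mice it rose after MCAO/R to 159, 199 and 272 CPM (1.10, adjusted p = 0.029). The Nfkb1 call in pericytes of Lrg1-/- mice was lost without sham + Lrg1-/- replicates 1 and 2 and MCAO/R + Lrg1-/- replicate 5 (0.88 to 1.37, adjusted p 0.072 to 0.22). The same Nfkb1 call did not pass with cells thinned to 1000 UMIs (1.53, adjusted p = 0.43), with predicted doublets kept (0.60, adjusted p = 0.16) and with unnamed clusters added to their best type (0.85, adjusted p = 0.17).

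In neural progenitors and neuroblasts the genotype difference of Nfkb1 had opposite signs after the surgeries. It stood at 185, 214 and 161 CPM in sham + WT and 78.5, 74.0 and 121 in sham + Lrg1-/-. Nfkb1 after MCAO/R was at 131 and 142 CPM in WT and 245, 181 and 304 in Lrg1-/- mice. It was lower without Lrg1 after sham surgery (log2 fold change -1.10, SE 0.246, adjusted p = 0.024) and higher without Lrg1 after MCAO/R (0.95, adjusted p = 0.022). In neural progenitors and neuroblasts after sham surgery this Nfkb1 call was lost without sham + WT replicates 1 and 2 and sham + Lrg1-/- replicates 1 and 2 (-1.10 to -0.96, adjusted p 0.069 to 0.097). The same Nfkb1 call did not pass with cells thinned to 1000 UMIs (-1.14, adjusted p = 0.21) and with predicted doublets kept (-0.72, adjusted p = 0.15). In neural progenitors and neuroblasts after MCAO/R this Nfkb1 call was lost without MCAO/R + WT replicates 1 and 2 and MCAO/R + Lrg1-/- replicate 5 (0.76 to 0.99, adjusted p 0.071 to 0.16). The same Nfkb1 call did not pass with cells thinned to 1000 UMIs (1.07, adjusted p = 0.099) and with predicted doublets kept (0.89, adjusted p = 0.067). Within Lrg1-/- mice it rose after MCAO/R (1.58, adjusted p = 0.013). In neural progenitors and neuroblasts of Lrg1-/- mice this Nfkb1 call was lost without sham + Lrg1-/- replicates 1 and 2 (1.44 to 1.52, adjusted p 0.071 to 0.072). The same Nfkb1 call did not pass with cells thinned to 1000 UMIs (0.82, adjusted p = 0.65), with predicted doublets kept (1.23, adjusted p = 0.062) and with only the groups compared in the fit (1.48, adjusted p = 0.12). Each sham + Lrg1-/- library held 20 to 160 of these cells. The microglial markers summed in them to 642 to 940.3 CPM in sham + WT, 855 to 2036 in sham + Lrg1-/-, 278 to 395 in MCAO/R + WT and 994 to 2228 in MCAO/R + Lrg1-/-, and their part in Nfkb1 was not tested. The difference between the responses to surgery did not pass its test (2.05, adjusted p = 0.055).

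Rela and Relb differed between the sham groups in vascular cells, in opposite directions. Rela in pericytes was at 77.8, 65.8 and 70.0 CPM in WT and 109 and 102 in Lrg1-/- (0.70, adjusted p = 0.018). The Rela call in pericytes was lost without sham + WT replicate 2 and sham + Lrg1-/- replicates 1 and 2 (0.64 to 0.73, adjusted p 0.056 to 0.15). Rela also missed the threshold with cells thinned to 1000 UMIs (0.20, adjusted p = 0.91) and with unnamed clusters added to their best type (0.49, adjusted p = 0.054). Relb in pericytes was at 74.6, 75.0 and 67.9 against 29.6 and 27.2 CPM (-1.21, adjusted p = 0.022). The Relb call in pericytes was lost without sham + Lrg1-/- replicates 1 and 2 (-1.29 to -1.17, adjusted p 0.11 to 0.13). Relb also missed the threshold with cells thinned to 1000 UMIs (-0.91, adjusted p = 0.67), with predicted doublets kept (-0.80, adjusted p = 0.071) and with unnamed clusters added to their best type (-0.65, adjusted p = 0.14). Vascular smooth muscle cells had Rela at 66.0, 62.7 and 55.0 CPM in WT against 79.1, 81.5 and 96.5 (0.56, adjusted p = 0.031). The Rela call in vascular smooth muscle cells was lost without sham + WT replicates 1, 2 and 3 and sham + Lrg1-/- replicates 2 and 5 (0.42 to 0.61, adjusted p 0.054 to 0.12). Rela also missed the threshold with cells thinned to 1000 UMIs (0.49, adjusted p = 0.29), with predicted doublets kept (0.48, adjusted p = 0.056) and with no filter on low counts (0.52, adjusted p = 0.068). Their Relb was at 98.8, 80.9 and 76.1 against 46.9, 41.0 and 37.4 CPM (-0.96, adjusted p = 0.010), a call that held in all repeats. Endothelial Rela stood at 70.2, 73.0 and 68.4 CPM in sham + WT and 88.4, 90.0 and 96.2 in sham + Lrg1-/-. Rela after MCAO/R was at 101 and 96.5 CPM in WT and 87.0, 101 and 99.97 in Lrg1-/- mice. It was higher without Lrg1 after sham surgery (0.44, adjusted p = 0.033) and higher after MCAO/R in WT mice (0.52, adjusted p = 0.047). The Rela call in endothelial cells after sham surgery was lost without sham + WT replicates 1, 2 and 3, sham + Lrg1-/- replicates 2 and 5 and MCAO/R + WT replicates 1 and 2 (0.34 to 0.49, adjusted p 0.055 to 0.11). Rela also missed the threshold with cells thinned to 1000 UMIs (0.61, adjusted p = 0.052) and with no filter on low counts (0.38, adjusted p = 0.13). The Rela call in endothelial cells of WT mice was lost without sham + WT replicates 1, 2 and 3, sham + Lrg1-/- replicates 1 and 2 and MCAO/R + WT replicates 1 and 2 (0.45 to 0.59, adjusted p 0.0503 to 0.38). The same Rela call did not pass with cells thinned to 1000 UMIs (0.46, adjusted p = 0.25), with predicted doublets kept (0.45, adjusted p = 0.079) and with no filter on low counts (0.53, adjusted p = 0.10). Other transcripts moved with the genotype in these sham vascular cells. In pericytes the 8 endothelial markers summed to 5239 to 7072 CPM in WT and 12243 to 13543 in Lrg1-/-, all 8 higher, and the haemoglobin genes to 21.4 to 107 against 11972 to 18619 CPM. In vascular smooth muscle cells the endothelial markers summed to 361 to 699 against 1089.8 to 2845 CPM, all 8 higher, beside the microglial markers given above. In endothelial cells the microglial markers, all 10 higher, summed to 413 to 827 against 906 to 1877 CPM and the haemoglobin genes to 997 to 1305 against 30479.9 to 85383 CPM. The part of these in the vascular calls of any member was not tested. Relb was also lower in T cells of sham + Lrg1-/-, at 178, 167 and 143 CPM in WT against 101, 52.9 and 69.5 (-1.01, adjusted p = 0.0086), in all repeats. Relb in T cells missed the threshold with cells thinned to 1000 UMIs (-0.69, adjusted p = 0.45). The immediate early, NK and endothelial sums of these T cells moved with it, and their part was not tested. In monocytes and monocyte-derived macrophages it was at 194, 182 and 184 against 97.1 and 71.2 CPM (-1.16, adjusted p = 0.027). The Relb call in monocytes and monocyte-derived macrophages was lost without sham + WT replicates 1, 2 and 3 and sham + Lrg1-/- replicates 1 and 5 (-1.42 to -0.99, adjusted p 0.052 to 0.25). After MCAO/R Relb was higher without Lrg1 in oligodendrocytes, at 18.7 and 16.2 CPM in WT against 19.6, 27.2 and 48.1 (0.997, adjusted p = 0.028). The Relb call in oligodendrocytes was lost without MCAO/R + WT replicates 1 and 2 and MCAO/R + Lrg1-/- replicate 5 (0.54 to 1.12, adjusted p 0.074 to 0.16). Relb also missed the threshold with cells thinned to 1000 UMIs (1.44, adjusted p = 0.066) and with only the groups compared in the fit (1.03, adjusted p = 0.11). The microglial markers summed there to 175 to 279.6 CPM in WT against 795 to 2219.5, all 10 higher, and their part was not tested.

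Birc3 (chr9:7848699-7873186, minus strand) was lower without Lrg1 in microglia and endothelial cells after MCAO/R. In microglia it stood at 391, 431 and 461 CPM in sham + WT and 338, 314 and 302 in sham + Lrg1-/-. Birc3 after MCAO/R was at 246 and 351 CPM in WT and 157, 139 and 166 in Lrg1-/- mice. The MCAO/R + Lrg1-/- libraries lay below all others and were 2.05-fold lower than MCAO/R + WT, in all repeats (log2 fold change -1.04, SE 0.144, adjusted p = 4.1e-04). Sham + Lrg1-/- also lay below sham + WT (-0.60, adjusted p = 0.0060). After MCAO/R it fell in all repeats in Lrg1-/- mice (-0.95, adjusted p = 1.7e-04) and also in WT mice (-0.52, adjusted p = 0.023). The Birc3 call in microglia of WT mice was lost without sham + WT replicates 2 and 3 and MCAO/R + WT replicate 1 (-0.52 to -0.32, adjusted p 0.072 to 0.26). Birc3 also missed the threshold with clusters 8 and 29 added (-0.52, adjusted p = 0.18). Within single microglial clusters the MCAO/R difference was called in cluster 13 (-0.84, adjusted p = 0.022). It was not called in clusters 2 (-0.47, adjusted p = 0.11), 7 (-0.36, adjusted p = 0.11) and 9 (-0.77, adjusted p = 0.072). The fall with surgery in Lrg1-/- mice was called in cluster 7 (-0.54, adjusted p = 0.015). That in WT mice was called neither in cluster 2 (-0.14, adjusted p = 0.69) nor in cluster 7 (-0.35, adjusted p = 0.17), and the sham groups gave no call in cluster 7 (-0.17, adjusted p = 0.35). In cluster 1, not fitted alone, Birc3 stood at 371, 415 and 417 CPM in sham + WT and 359, 337 and 321 in sham + Lrg1-/-.

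Endothelial cells, the lining of blood vessels, had Birc3 at 85.9, 70.1 and 67.7 CPM in sham + WT and 70.5, 52.9 and 56.5 in sham + Lrg1-/-. Birc3 after MCAO/R was at 149 and 142 CPM in WT and 48.0, 83.6 and 94.5 in Lrg1-/- mice. In WT mice it rose after MCAO/R (log2 fold change 1.01, SE 0.225, adjusted p = 0.022). The Birc3 call in endothelial cells of WT mice was lost without sham + WT replicates 2 and 3 and MCAO/R + WT replicates 1 and 2 (0.93 to 1.09, adjusted p 0.081 to 0.19). Birc3 also missed the threshold with cells thinned to 1000 UMIs (1.01, adjusted p = 0.12) and with predicted doublets kept (0.72, adjusted p = 0.089). After MCAO/R both WT libraries lay above all Lrg1-/- libraries (log2 fold change -0.96, SE 0.225, adjusted p = 0.015). The Birc3 call in endothelial cells after MCAO/R was lost without MCAO/R + WT replicates 1 and 2 (-1.04 to -0.88, adjusted p 0.073 to 0.10). Birc3 also missed the threshold with cells thinned to 1000 UMIs (-0.91, adjusted p = 0.084) and with only the groups compared in the fit (-0.98, adjusted p = 0.083). For Lrg1-/- mice the change with surgery was not called (0.30, adjusted p = 0.41), and the difference between the responses did not pass its test (-0.71, adjusted p = 0.54). The immediate early sum in these cells was 30616 to 31881 CPM in MCAO/R + WT and 18339 to 19410.1 in MCAO/R + Lrg1-/-, and its part was not tested.

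Between the sham groups the fitted change of Birc3 was negative in all 13 types tested and called in 4, microglia and 3 others. T cells had 254, 194 and 235 CPM in WT and 87.3, 114 and 61.5 in Lrg1-/-, in all repeats (log2 fold change -1.33, SE 0.207, adjusted p = 9.1e-04). B cells had 547, 625 and 551 against 223 and 59.0 CPM (-1.91, adjusted p = 0.030). The Birc3 call in B cells was lost without sham + WT replicates 1, 2 and 3 and sham + Lrg1-/- replicate 5 (-1.98 to -1.33, adjusted p 0.065 to 0.12). The same Birc3 call did not pass with cells thinned to 1000 UMIs (-1.71, adjusted p = 0.072). The B-cell markers stood at 3859, 4161 and 4864 against 2831 and 594 CPM, and the part of this and of the T-cell sums given above was not tested. Pericytes had 67.5, 87.0 and 65.3 against 34.6 and 36.2 CPM (-0.92, adjusted p = 0.030). The Birc3 call in pericytes was lost without sham + WT replicate 2 and sham + Lrg1-/- replicates 1 and 2 (-0.97 to -0.77, adjusted p 0.086 to 0.17). The same Birc3 call did not pass with cells thinned to 1000 UMIs (-1.38, adjusted p = 0.59) and with unnamed clusters added to their best type (-0.11, adjusted p = 0.81).

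A list of 56 other genes of the pathway, in 5 roles, was read beside the members. Its calls, here and in the next paragraph, were not followed through the repeats without a library or the other choices. In microglia after MCAO/R, 21 of its 55 tested genes were called between the genotypes (5 higher and 16 lower without Lrg1), or 38.2% beside 21.2% of all genes. Their median log2 fold change was -0.27 beside 0.09 over all genes. The calls lay among the other brakes (7 of 11 called, 6 of them lower), the other NF-kappaB and IkappaB proteins (4 of 6, 3 lower) and the adaptors and kinases (6 of 16, 4 lower). Of the targets 3 of 16 were called (2 lower), and of the ligands and receptors 1 of 6. Rel, which encodes the c-Rel subunit, averaged 419 CPM in MCAO/R + Lrg1-/- and 1034 in MCAO/R + WT (-1.39, adjusted p = 5.9e-05). Il6, an inflammatory cytokine, averaged 5.40 and 28.7 (-2.48, adjusted p = 2.3e-04). Zfp36, whose protein degrades Tnf mRNA, was lower too (-0.82, adjusted p = 0.0011). Also lower were Nfkbie (-0.76, adjusted p = 0.0019), a further IkappaB gene, the chemokine gene Cxcl10 (-1.21, adjusted p = 0.0021) and the ligand gene Tnfsf12 (-1.16, adjusted p = 0.0020). The kinase gene Ikbke was higher (1.25, adjusted p = 0.0018). In border-associated macrophages, where 16.5% of all genes were called, Zfp36 (-0.98, adjusted p = 0.0019) and the chemokine gene Ccl3 (-1.29, adjusted p = 0.0020) were the named genes that were lower. Over the whole list 8 of 53 were called there (4 higher, 4 lower), or 15.1%. Tnip3, which encodes a partner of A20, was lower in monocytes and monocyte-derived macrophages (-2.90, adjusted p = 0.0031).

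In microglia most of the 16 targets rose with surgery, 10 in WT and 11 in Lrg1-/- mice, and none was called lower. Their median log2 fold changes were 1.57 and 1.82, and 21.6 and 36.2% of all genes were called. The neutrophil chemokine gene Cxcl2 was among those that rose in microglia, in WT (3.78, adjusted p = 4.9e-05) and Lrg1-/- mice (4.33, adjusted p = 3.4e-05). Sod2, which encodes a mitochondrial superoxide dismutase, rose in WT (2.06, adjusted p = 7.7e-05) and Lrg1-/- mice (1.63, adjusted p = 2.1e-04), as did Bcl2a1d, a survival gene (2.30, adjusted p = 1.1e-06, and 2.78, adjusted p = 4.7e-06). Endothelial cells had 1 of 16 higher in WT and 4 of 16 in Lrg1-/- mice, beside 6.85 and 6.61% of all genes. Over the whole list in microglia, surgery gave 22 calls of 55 in WT mice (17 higher, 5 lower) and 29 of 55 in Lrg1-/- mice (17 higher, 12 lower). None of the 6 other NF-kappaB and IkappaB genes was called in WT mice, and 4 of the 6 were in Lrg1-/- mice (1 higher, 3 lower). Between the sham groups 19 of 55 were called in microglia (5 higher, 14 lower), or 34.5% beside 22.6% of all genes. Cxcl10 (-4.33, adjusted p = 1.0e-07) and the chemokine gene Ccl4 (-1.82, adjusted p = 2.5e-04) were among those lower without Lrg1. The response to surgery differed between genotypes for 5 of 55 genes, or 9.09%, beside 9.12% of all genes. It was more positive without Lrg1 for Cxcl10 (difference of log2 fold changes 3.12, adjusted p = 4.7e-04), Ccl4 (1.81, adjusted p = 0.013) and Nfkbid (0.95, adjusted p = 0.049). It was less so for Rel (-0.78, adjusted p = 0.031) and Traf6 (-0.91, adjusted p = 0.023).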

How the data were processed

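Single-cell suspensions of brain tissue from 11 mice (4 groups, 2 or 3 libraries each, 1 mouse per library) were sequenced with 10x 3′ chemistry. The authors deposited UMI counts per gene and cell, not normalized, for 155804 barcodes. The matrix headers name Cell Ranger 7.0.1, the study's methods version 5.0.0, and the submitters' processing notes name STAR and mm10. No column of other samples was present (0).

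Cells with over 500 genes, over 1000 UMIs and under 25% mitochondrial UMIs were kept (132437), and 6946 predicted doublets were removed by an own implementation of simulated doublets (expected 6%). The top 6% were taken in 6 libraries where no threshold was found or where it marked a share of cells outside set limits. Clustering used 2000 variable genes without the members, their partner genes and the immediate early genes, 15 components, 3 neighbours per library and Leiden resolution 2 (42 clusters). A cluster was named from fixed markers (at least 3 at a fold of 2 and in 10% of cells), a rule whose comparison of the leading types was set after the clusters were seen. UMIs were summed per library and type where a library had at least 20 cells, and edgeR 4.0.16 (R 4.3.3, limma 3.58.1) quasi-likelihood tests with TMM scaling and filterByExpr were fitted on all genes with all 4 groups, with Benjamini-Hochberg adjustment over all genes of a type and comparison. A comparison needed at least 2 such libraries per group. Alternatives were DESeq2 1.42.0, other scaling, filters, cell limits, thinning, a replicate block and leaving out each library. The testing script was checked on simulated counts. Clustering ran on scikit-learn 1.9.0 and leidenalg 0.10.2 under Python 3.11.15.

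Depth ranged from 37159497 to 171813031 UMIs per library, and a gene's precision follows its own UMIs (484 to 45485 for Tnf in microglia). The p-values measure the spread between mice. All 10 members were named in every type, and partner genes called in microglia, macrophages or endothelial cells by smallest p, at most 10 per comparison. The members and lists were chosen with earlier results of these data known. Positions follow GENCODE M21 on GRCm38, and sequences RefSeq.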

Additional observations from a re-analysis of the deposited data

Results flagged for a closer look

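Nfkb1 in neural progenitors and neuroblasts was picked out because its MCAO/R libraries lay on opposite sides of the sham libraries in the genotypes: both MCAO/R + WT libraries lay below all sham + WT libraries, and all MCAO/R + Lrg1-/- libraries above all sham + Lrg1-/- libraries. The log2 fold changes of MCAO/R against sham were -0.47 in WT (adjusted p = 1.0) and 1.58 in Lrg1-/- mice, and their difference, 2.05, did not pass the edgeR test of the difference itself (adjusted p = 0.055). The change in WT mice was not called either. The 10 microglial markers summed in these cells to 278 to 395 CPM in MCAO/R + WT and 994 to 2228 in MCAO/R + Lrg1-/-, and their part was not tested.

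Tnfaip3 in choroid plexus epithelial cells was picked out in the same way, with MCAO/R libraries all above sham in WT (0.95, adjusted p = 0.13) and all below sham in Lrg1-/- mice (-0.92, adjusted p = 0.089). The difference was -1.87 and did not pass (adjusted p = 0.25).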

How the results depend on the processing

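Of the 71 called tests of members, 22 stayed called in every leave-out of a library, 9 under all alternatives that tested them, and 1277 of 1567 alternatives kept the call. In 3 of the 71 the direction turned, each time within a single microglial cluster and without a call: Tnf with surgery in WT mice (-0.42 in cluster 2, -0.29 in cluster 7), and Nfkbia (-0.0027) and Nfkbiz (-0.094) with surgery in cluster 7 of Lrg1-/- mice. Of the 71, 29 were lost with cells thinned to 1000 UMIs, 15 with only the groups compared in the fit, 12 with doublets kept, 7 with unnamed clusters added to the best type, 6 with clusters 8 and 29 added, 4 with no filter on low counts and 2 with a 10% mitochondrial limit. A call whose gene or cell type was not tested under an alternative counts as neither kept nor lost there. Between the sham groups, 106 of the 130 member tests remained with thinned cells and 90 with at least 50 cells. Within edgeR, RLE scaling (the method of DESeq2's size factors) in place of TMM moved no called log2 fold change by more than 0.105. Counts of calls moved by over 1.5 times as follows, without the share of all genes called, which was not counted under these settings. The cause was not tested. MCAO/R + Lrg1-/- against MCAO/R + WT (16) gave 27 with no filter on low counts and 7 with only the groups compared in the fit, and leaving out 1 library gave 3 to 20 (3 without MCAO/R + WT replicate 2 and 9 without replicate 1). MCAO/R + WT against sham + WT (10) gave 16 with no filter, 21 with only the groups compared, and 1 to 12 by leave-out (1 without MCAO/R + WT replicate 1, 5 and 5 without sham + WT replicates 2 and 3). MCAO/R + Lrg1-/- against sham + Lrg1-/- (16) gave 25 by DESeq2, 36 with no filter, 10 with cells thinned to 1000 UMIs, and 7 to 29 by leave-out (29 without MCAO/R + Lrg1-/- replicate 1, 8 and 7 without sham + Lrg1-/- replicates 1 and 2). Sham + Lrg1-/- against sham + WT (29) gave 18 with at least 50 cells, 10 with thinned cells, and 14 to 39 by leave-out (14 without sham + WT replicate 2, 19 without sham + WT replicate 3 and 19 without sham + Lrg1-/- replicate 5). The difference between responses (0) gave 3 by DESeq2, 7 with no filter, 1 with thinned cells, and 0 to 2 by leave-out.

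The replicate numbers are not said to pair the mice, and the correlations of library deviations could not decide it. Deviations of same-numbered libraries from their group means correlated at a median r of -0.011 in microglia and -0.058 in endothelial cells. For other pairs of libraries the medians were 0.0050 and 0.037. Same-numbered pairs ran from -0.23 to 0.38 in endothelial cells, and in groups this small the deviations of a group depend on each other. With the number as a replicate block 34 of the 71 calls were lost, and the counts were 11, 3, 16, 14 and, for the difference between responses, 1. These losses are not named call by call above.

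Thinning lowered the mean share of microglia with a Tnf UMI from 62.9 to 22.0% (sham + WT), 40.2 to 11.1% (sham + Lrg1-/-), 79.6 to 37.7% (MCAO/R + WT) and 78.2 to 34.0% (MCAO/R + Lrg1-/-). Of 40 microglial levels, 33 moved by less than 1 SD with a TMM-adjusted total. Adding the unnamed clusters closest to microglia (8 and 29), chosen after seeing the data, gave 16, 7, 13 and 29 calls. Low UMI sums limit the receptor genes outside immune cells.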
